A study of Setaria italica with 24 samples.

Results

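The response of foxtail millet roots to an arbuscular mycorrhizal fungus (AMF) was compared between the cultivar TT8 and the landrace ISE36. For every gene, the difference between AMF-treated and mock-treated roots of ISE36 was subtracted from the same difference in TT8, on the log2(value + 1) scale. A positive value is therefore a higher response in TT8 and a negative value a lower one. The comparison held 23850 genes out of 26785 listed for any line of the series, and 16 of the 24 libraries. A gene entered when it was listed for both lines (24336 genes) and had a mean of at least 5 in each. Of the genes listed for both lines, 486 fell under that mean in at least 1 of them. A further 982 were listed for TT8 and not for ISE36, and 1161 for ISE36 and not for TT8.

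All plants were Setaria italica grown in cones and all RNA came from roots harvested 6 weeks after treatment. The 4 groups were TT8 mock, TT8 AMF, ISE36 mock and ISE36 AMF, with 4 libraries each. AMF roots had been inoculated with Claroideoglomus etunicatum and mock roots had not. The labels write the landrace as ICE36. TT8 is a Taiwan cultivar and ISE36 an Indian landrace, so that the 2 groups of plants differ in their whole genetic background, and each background is represented by 1 line. The third line of the series, the Taiwan landrace Hanevalval (4 mock and 4 AMF libraries), entered neither the main comparison nor the classes. Its libraries entered 1 alternative fit, and the study had chosen some of the gene lists used here with its responses known.

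In arbuscular mycorrhiza the fungus grows through the root cortex and forms arbuscules, finely branched structures inside cortical cells where the partners exchange nutrients. The plant takes up phosphate and nitrogen through transporters of the membrane around the arbuscule, and supplies the fungus with fatty acids. GRAS and AP2 domain transcription factors switch this programme on in cells that hold arbuscules. Many of these genes are close to silent in roots without fungus, and their transcripts are widely used as a sign of colonization. In whole roots, fewer colonized cells and less RNA per colonized cell cannot be told apart.

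The 16 libraries of TT8 and ISE36 held 16543884 to 23333517 reads on genes. Libraries of a group correlated at 0.918 to 0.987 on the log2 scale. The lowest values all came from pairs with TT8 mock replicate 4, which correlated at 0.918 to 0.947 with the other TT8 mock libraries, whereas those correlated at 0.963 to 0.977 with each other. In replicate 4, genes that AMF raised in TT8 were often high. It was the highest of the 4 TT8 mock libraries for 33.4% of all genes tested and for 29 of the 37 conserved symbiosis genes that rose in TT8. PHT1;9 was at 74.6 there against 0.853 to 1.86 in the other TT8 mock libraries. Calls of the genes named here that changed without this library are given without it, and the cause of its position was not tested.

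The response differed between the lines in 3402 genes (limma, adjusted p at most 0.05 and a difference of at least 1 on the log2 scale, called below), or 14.3% of the genes tested. It was higher in TT8 in 2187 genes (9.17%) and lower in TT8 in 1215 (5.09%). An unadjusted p under 0.05 was reached by 36.0% of all genes, and the median difference over all genes was 0.00355. The calls sat on top of unequal numbers of responding genes. AMF raised 2789 genes (11.7%) and lowered 1583 (6.64%) in TT8, while it raised 1233 (5.17%) and lowered 1124 (4.71%) in ISE36. Of the 3402 genes, 2070 (60.8%) stayed called whichever single library was left out. Without TT8 mock replicate 4 the number of genes higher in TT8 was 3366 and the number lower was 1773.

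Called genes were sorted by whether each line moved by at least 1 in either direction. TT8 moved further than ISE36 in 1584 genes, of which 1185 rose (4.97% of genes tested) and 399 fell (1.67%). ISE36 moved further in 686 genes, classed as weaker in TT8, with 336 rising in ISE36 (1.41%) and 350 falling (1.47%). The lines moved in opposite directions by at least 1 each in 237 genes, with TT8 up in 145 (0.608%) and down in 92 (0.386%). In the remaining 895 called genes (3.75%) neither line moved by 1. The responses of these 895 all differed in sign between the lines, which follows from the threshold on the difference. Without TT8 mock replicate 4, the number of genes that moved further in TT8 was 3026.

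**Figure D1:**
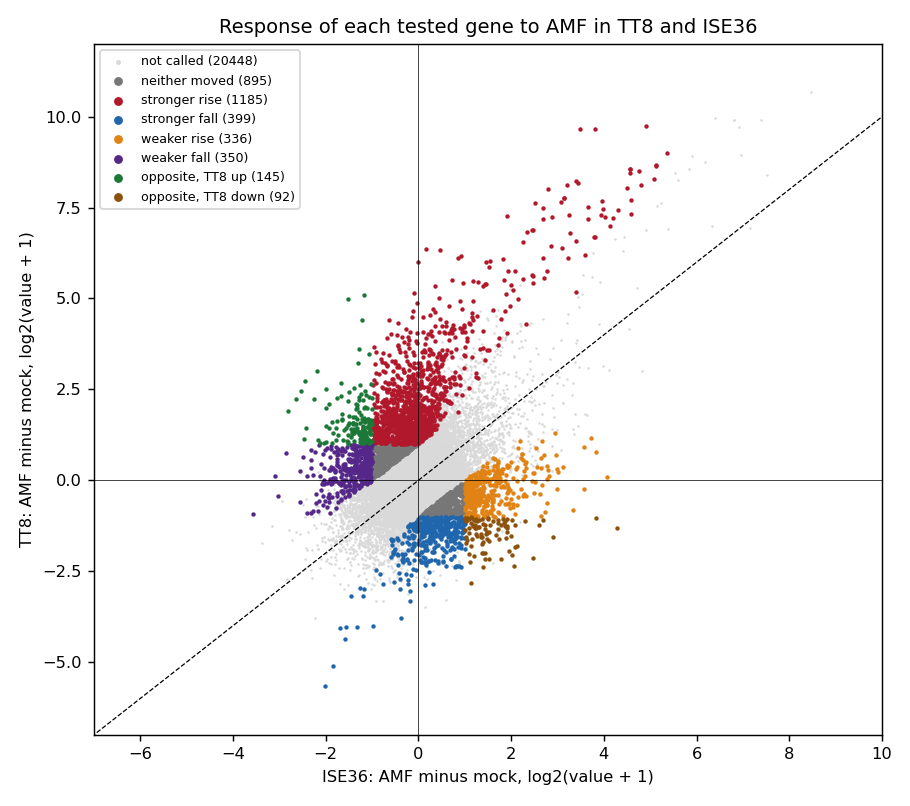
AMF minus mock on the log2(value + 1) scale in ISE36 (horizontal) and TT8 (vertical), 1 point per gene tested, coloured by response class with the number of genes in brackets; the dashed line marks equal responses. The 1185 genes with a stronger rise lie above the line, with SETIT_008807mg and SETIT_037319mg both at 9.67 in TT8, and the lowest gene with a stronger fall is SETIT_013490mg at -5.65.

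The stronger and weaker classes mostly held genes that moved in 1 line. The responses of the lines shared a sign in 441 of the 1185 genes with a stronger rise and 97 of the 399 with a stronger fall. They did so in 109 of the 336 with a weaker rise and 90 of the 350 with a weaker fall. In most genes of each class the smaller response thus had the other sign, and the class names refer to the distance moved. Of the 1185 genes with a stronger rise, 1180 rose in TT8 by the test within that line and 88 in both lines, and their median response was 1.83 in TT8 and -0.14 in ISE36. Of the 399 with a stronger fall, 396 fell in TT8 and 8 in both, with medians of -1.41 and 0.28. Conversely 331 of the 336 genes with a weaker rise rose in ISE36 and 3 of them also in TT8, at medians of 1.42 and -0.26. Of the 350 with a weaker fall, 343 fell in ISE36 and 0 in TT8, at medians of -1.37 and 0.30. For the opposite genes both movements passed the test within their lines in 73 of 145 with TT8 up and 66 of 92 with TT8 down.

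The classes also differed in the treatment under which the lines stood apart, here taken as a difference of at least 1 between the group means of TT8 and ISE36. Over all genes tested the median difference between the lines was -0.000847 under mock and 0.00404 under AMF. The libraries of the series had been scaled together, which by itself keeps such medians small. They cannot show whether the level of a single gene compares between the lines. Among genes with a stronger rise, 550 (46.4%) stood apart under mock only and 343 (28.9%) under AMF only. Over all genes tested these shares were 11.05% and 12.08%. The difference of the responses equals the gap between the lines under AMF minus that under mock. Genes called for a large difference therefore stand apart more often by selection, and the excess is no separate evidence. Their median level in TT8 was lower than in ISE36 by a difference of -1.23 under mock and higher by 0.73 under AMF. Genes with a stronger fall showed the mirror image, at 0.98 under mock and -0.77 under AMF. The weaker classes stood apart mostly under AMF. This held for 207 of the 336 genes with a weaker rise (61.6%), where the median difference was -0.02 under mock and -1.79 under AMF. It held for 226 of the 350 with a weaker fall (64.6%), where it was -0.24 and 1.45. In 62 of the 145 opposite genes with TT8 up, the lines stood apart under both treatments and the line with the higher level changed between them. The same was found in 262 of all 23850 genes tested.

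TT8 mock replicate 4 lay on the AMF side of its group in these classes. It was the highest TT8 mock library in 1019 of the 1185 genes with a stronger rise (86.0%) and the lowest in 333 of the 399 with a stronger fall (83.5%). Its median distance from the mean of the other mock libraries was 1.58 and -0.85 in these classes, against -0.02 over all genes tested.

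Genes with a stronger rise in TT8 included several that were near silent in mock roots. Among class members that averaged 50 or more in each line and stayed called in all 16 fits without a library, the largest difference was that of SETIT_008807mg, for which no annotation was used here. Values are given in the order of replicates 1 to 4, and a change is written from the mock to the AMF libraries. Its values in the TT8 mock libraries were 0.931, 0, 0.853 and 71.1, and in the TT8 AMF libraries 3029, 5009, 3025 and 2459. In ISE36 they were 21.3, 21.5, 38.9 and 38.2 in mock and 179.7, 294, 403 and 578 in AMF roots. The treatments did not overlap in either line, and the TT8 AMF libraries lay above every ISE36 library. The response was 9.67 in TT8 and 3.49 in ISE36, a difference of 6.18 ± 1.32 (SE, adjusted p = 0.00643). SETIT_037319mg had the same shape. It was at 0, 1.95, 0 and 75.8 in TT8 mock and 2685, 4351, 3150.4 and 2714 in TT8 AMF roots, against 8.87, 9.11, 7.23 and 4.55 in mock and 47.3, 132, 131 and 201 in AMF roots of ISE36. The difference was 5.87 ± 1.40 (SE, adjusted p = 0.0108). In both genes TT8 mock replicate 4 stood far above the rest of its group, and without it the differences were 7.57 and 7.31. On recovered reads SETIT_037319mg was not called, at 3.42 by edgeR (adjusted p = 0.0907) and 3.28 by DESeq2 (adjusted p = 0.142).

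SETIT_028233mg, annotated as a heparan-alpha-glucosaminide N-acetyltransferase and listed among the conserved symbiosis genes, differed in another way. It rose in TT8 from 11.2, 4.88, 4.26 and 17.8 to 527, 826, 462 and 612. In ISE36 it was at 239, 212, 234 and 228 in mock and 176, 259, 250.1 and 234 in AMF roots, so that the treatments overlapped and the landrace sat at an intermediate level throughout. The response was 6.02 ± 0.32 (SE) in TT8 and -0.00 ± 0.32 in ISE36, a difference of 6.02 ± 0.45 (SE, adjusted p = 1.75e-05).

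Among genes with a stronger fall, SETIT_013490mg dropped in TT8 from 129, 270.3, 219 and 238 in mock to 4.36, 3.1, 1.05 and 5.49 in AMF roots. In ISE36 it fell from 188, 119, 73.2 and 74.6 to 29.3, 32.8, 18.9 and 22.4. The fall passed the test in both lines, at -5.65 and -2.02, and the difference was -3.63 ± 0.53 (SE, adjusted p = 7.21e-04). SETIT_015030mg fell in TT8 from 686, 1235, 728 and 789 to 29.4, 31, 23.1 and 14.3 and in ISE36 from 161, 122, 77.8 and 226 to 83.2, 31.8, 19.8 and 37.3. The mock levels of this gene were higher in TT8 than in ISE36, the AMF levels of the lines overlapped, and the difference was -3.26 ± 0.56 (SE, adjusted p = 0.00187). SETIT_029452mg fell in TT8 from 137, 292, 339 and 322 to 27.3, 15.5, 16.8 and 13.2. Its ISE36 response of -0.39 ± 0.43 (SE) did not pass the test, and the difference was -3.41 ± 0.61 (SE, adjusted p = 0.00233).

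The leading genes with a weaker rise passed the test for a rise in ISE36 and not in TT8. SETIT_022614mg rose in ISE36 from 62.1, 97.7, 113 and 112 in mock to 611, 1452, 1112 and 846 in AMF roots. In TT8 it was at 222, 236, 76.8 and 87.7 in mock and 42.5, 71.3, 88.1 and 131 in AMF roots, with overlapping treatments. The difference was -4.16 ± 0.57 (SE, adjusted p = 5.79e-04). SETIT_037604mg rose in ISE36 from 405, 526, 605 and 863 to 2795, 5316, 3734 and 3125. Its TT8 response was a fall of -0.99 ± 0.28 (SE, adjusted p = 0.0122), just under the fold threshold. The difference of the responses was -3.64 ± 0.39 (SE, adjusted p = 1.20e-04). SETIT_013661mg rose in ISE36 from 459, 609, 917 and 999 to 3364, 5329, 3958 and 3661, and TT8 was at 137 to 272 in its 8 libraries. The difference was -2.85 ± 0.38 (SE, adjusted p = 4.15e-04), and every ISE36 library lay above every TT8 library.

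The leading genes with a weaker fall passed the test for a fall in ISE36 and not in TT8. SETIT_019806mg fell in ISE36 from 643, 583, 477 and 539.7 in mock to 88.9, 123, 73 and 99.7 in AMF roots. In TT8 it was at 271, 625, 764 and 969 in mock and 750.4, 779, 642 and 668 in AMF roots. The difference was 2.80 ± 0.40 (SE, adjusted p = 6.45e-04). SETIT_023893mg fell in ISE36 from 844, 969, 933 and 918 to 182, 140.2, 278 and 155, at -2.32, and its TT8 mock libraries spread from 257 to 2550. SETIT_039446mg fell in ISE36 from 145, 103, 92.2 and 83.7 to 33.1, 25.8, 14.6 and 21.4, at -2.14. The differences of these genes were 3.15 ± 0.66 (SE, adjusted p = 0.00585) and 3.11 ± 0.62 (SE, adjusted p = 0.00438), and neither TT8 response (0.83 and 0.98) passed the test.

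In the opposite class with TT8 up, SETIT_004450mg exchanged levels between the lines. TT8 rose from 16.8, 26.3, 15.4 and 22.5 in mock to 236, 287, 94.4 and 121 in AMF roots, and ISE36 fell from 114, 107, 137 and 127 to 16.1, 24.9, 25.8 and 42.9. The groups did not overlap within either line, both movements passed the test, and the difference was 5.19 ± 0.48 (SE, adjusted p = 4.05e-05). SETIT_024435mg rose in TT8 from 30.7, 83.9, 115 and 314 to 413, 502, 599.7 and 688 and fell in ISE36 from 779, 558, 596 and 617 to 159.8, 58.7, 159.8 and 91.4, a difference of 4.98 ± 0.71 (SE, adjusted p = 6.18e-04). SETIT_028002mg had 1 library far from its group. Its TT8 mock values were 3.72, 2.93, 10.2 and 578, with replicate 4 above all TT8 AMF values of 275, 380.4, 491 and 478. Its difference was 5.63 ± 1.56 (SE, adjusted p = 0.0211) and 7.29 without that library, and its fall in ISE36 of -1.22 ± 1.11 (SE) did not pass the test. On recovered reads it was 2.78 by edgeR and 2.75 by DESeq2 and was not called by either.

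With TT8 down, SETIT_019504mg fell in TT8 from 135, 68.3, 81.9 and 40.3 in mock to 25.1, 10.3, 21 and 29.7 in AMF roots, and rose in ISE36 from 280.3, 409.9, 429 and 354 to 1202, 1917, 1777 and 1357. The difference was -3.91 ± 0.47 (SE, adjusted p = 2.27e-04). SETIT_037942mg was at 1763, 1601, 1192 and 372 in TT8 mock and 339, 389, 287 and 418 in TT8 AMF roots, where replicate 4 of the mock group fell within the AMF range. In ISE36 it rose from 843, 962, 1199.9 and 1494 to 6806, 14452, 7090.1 and 6413, and the difference was -4.47 ± 0.56 (SE, adjusted p = 2.93e-04). SETIT_013775mg fell in TT8 from 772, 566, 281 and 111 to 58.9, 81.7, 58.7 and 69.2 and rose in ISE36 from 63.9, 85.3, 91.3 and 144 to 291, 582, 500.2 and 272, a difference of -4.42 ± 0.65 (SE, adjusted p = 7.60e-04). For these 3 genes both movements passed the test within their lines.

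**Figure D2:**
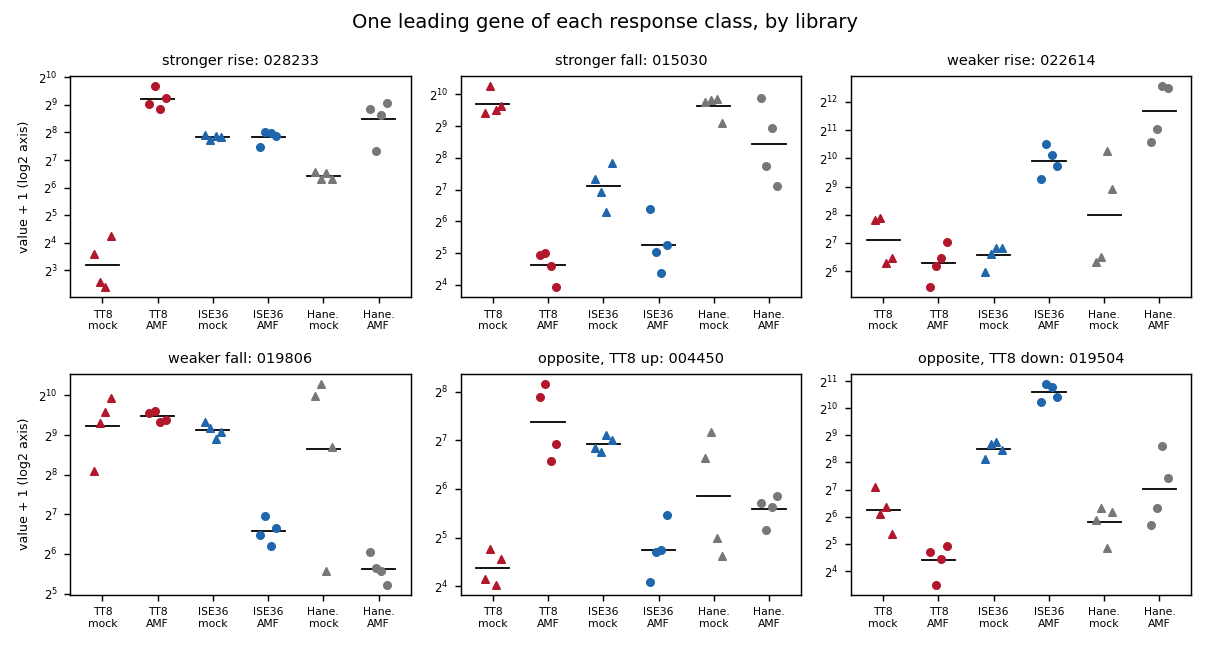
Value + 1 (log2 axis) of 1 leading gene of each response class in every library of TT8, ISE36 and Hanevalval (Hane.), with mock as triangles, AMF as circles and the mean on the log scale as a line. SETIT_004450mg changes places between TT8 and ISE36, while SETIT_019806mg stays at 271 or above in all TT8 libraries and falls to 73.1 to 123 in ISE36 AMF roots.

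Of the 5 gene lists, the one with the highest share of called members was that of symbiosis genes conserved between host plants. Of its 54 members, 50 were tested and 30 were called (60.0%, against 14.3% of all genes tested). The response was higher in TT8 for 27 (9.17% of all genes) and lower for 3 (5.09%). By class, 22 had a stronger rise, 2 a stronger fall, 1 a weaker rise and 2 a weaker fall, 2 were opposite with TT8 up and 1 moved in neither line. The median difference over the list was 2.23, against 0.00355 over all genes, and 2.21 with groups of at most 3 reads per library set to that floor, which concerned 9 of the 50. It was 2.92 without TT8 mock replicate 4, 1.10 by edgeR and 1.13 by DESeq2 on recovered reads, and 1.36 among genes with a mean of at least 50. The study had drawn the list from conservation across host plants, and it was taken up here with results of these libraries known.

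By the test within lines 37 of the 50 members rose in TT8 and 25 in ISE36, and 24 rose in both, with medians of 3.61 and 1.16. Of all genes tested, 11.7% rose in TT8 and 5.17% in ISE36. The test within both lines was passed, in any direction, by 835 of 23850. The distance between the lines was found mostly under AMF. There TT8 was higher by at least 1 in 39 of the 50 genes and lower in 3, whereas under mock it was higher in 14 and lower in 8. Of all genes tested, 12.08% stood apart by at least 1 in either direction under AMF only. The shares were 11.05% under mock only and 10.08% under both. The summed value of the 50 genes was 10952 to 14048 in TT8 mock and 10392 to 12669 in ISE36 mock libraries. It was 36226 to 49532 in TT8 AMF and 13751 to 17048 in ISE36 AMF libraries, so that the AMF groups of the lines did not overlap in this sum. Members with high values weigh most in it, such as AMT3;1 at 2706 to 4881 in TT8 AMF libraries. PHT1;9, whose difference was not called, was at 1940 to 3682 there. The sum therefore does not describe the list member by member. The study scored colonization on stained roots, which was not analysed here, and its part in these levels was not tested.

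**Figure D3:**
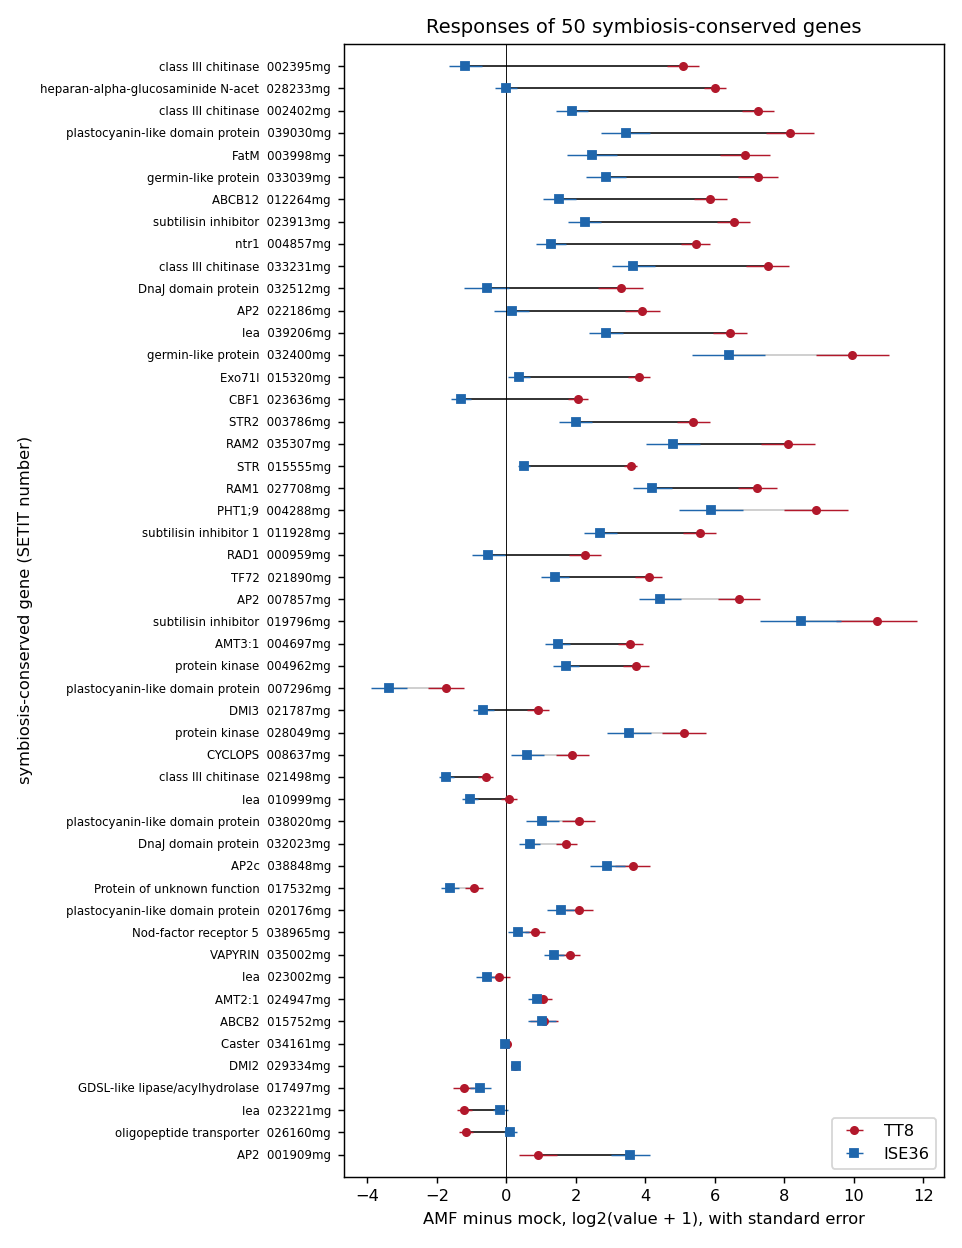
AMF minus mock on the log2(value + 1) scale with its standard error for the 50 conserved symbiosis genes tested, TT8 as circles and ISE36 as squares, ordered by the difference between the lines and labelled with the symbol or annotation of the study's list. Dark connecting lines mark the 30 called genes, of which 27 have TT8 to the right.

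Of the genes of lipid supply, STR, STR2 and FatM had a stronger rise in TT8 in every fit without a library. STR and STR2 encode the paired ABCG transporter subunits of the arbuscule membrane that are needed for lipid transfer to the fungus. STR was at 53.1, 49.8, 45.2 and 37.9 in TT8 mock and 515, 823, 453 and 517 in TT8 AMF roots, and at 39.9, 51.3, 47 and 47.3 in mock and 60.5, 70.6, 60.2 and 75.5 in AMF roots of ISE36. The mock groups of the lines overlapped and the AMF groups did not. The response was 3.58 ± 0.18 (SE) in TT8 and 0.51 ± 0.18 in ISE36, a difference of 3.06 ± 0.26 (SE, adjusted p = 2.84e-05). STR2 rose from 12.1, 7.81, 8.53 and 11.8 to 432, 696, 396 and 354 in TT8 and from 6.21, 4.14, 9.95 and 8.19 to 7.57, 36.8, 43.8 and 64.3 in ISE36, where replicate 1 of the AMF group stayed within the mock range. Its difference was 3.38 ± 0.68 (SE, adjusted p = 0.00445).

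FatM, the thioesterase that releases fatty acids for export to the fungus, rose from 6.52, 2.93, 0.853 and 24.9 to 645, 1024, 621 and 647 in TT8. In ISE36 it rose from 4.43, 8.28, 6.33 and 10.9 to 9.46, 52.7, 79.1 and 91.4, where replicate 1 of the AMF group stayed within the mock range. The difference was 4.40 ± 1.01 (SE, adjusted p = 0.00922). RAM2, a glycerol-3-phosphate acyltransferase acting after FatM, was at 0.931, 0.976, 0 and 19 in TT8 mock and 865, 1248, 652 and 632 in TT8 AMF roots. All ISE36 mock libraries were at 0 and the ISE36 AMF libraries at 5.67, 33.8, 43 and 58.7. Against a floor of 3 reads per library the rise in ISE36 was at least 13.3-fold, so that the fitted difference of 3.31 ± 1.09 (SE, adjusted p = 0.0426) depends on the pseudocount and is no bound. It was not called in 13 of the 16 fits with a library left out, and on recovered reads it was -0.72 by edgeR and -0.38 by DESeq2, not called by either.

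The transporters of mineral nutrients differed among themselves. PHT1;9, the phosphate transporter associated with mycorrhiza in this species, was at 1.86, 0.976, 0.853 and 74.6 in TT8 mock and 2353, 3682, 2583 and 1939.7 in TT8 AMF roots. It was at 0, 3.31, 1.81 and 1.82 in ISE36 mock and 114, 66.6, 179 and 307 in ISE36 AMF roots, with no overlap between the AMF groups of the lines. It rose in both lines, by 8.92 ± 0.92 (SE) and 5.90 ± 0.92. The difference of 3.02 ± 1.30 (SE, adjusted p = 0.107) did not pass the test, and without TT8 mock replicate 4 it was 4.30 and was called, as it was with a pseudocount of 8 (3.36).

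The nitrate transporter gene SETIT_004857mg rose in TT8 from 7.45, 9.76, 17.1 and 42.7 to 779.8, 946, 604 and 581 and in ISE36 from 24.8, 9.94, 19.9 and 17.3 to 32.2, 42.7, 38.7 and 65.3, a difference of 4.16 ± 0.60 (SE, adjusted p = 6.19e-04). AMT3;1, an ammonium transporter, rose from 286, 334, 154 and 425 to 3151, 4881, 3065 and 2706 in TT8 and from 64.7, 58.8, 88.6 and 82.8 to 113, 204, 181 and 418 in ISE36, at 2.10 ± 0.50 (SE, adjusted p = 0.0106). It was not called in the fit of 24 libraries (adjusted p = 0.0564). Its TT8 mock values were already above the ISE36 mock values in every library. AMT2;1, another ammonium transporter, was raised by 1.05 in TT8 and had a response of 0.87 in ISE36, and its difference of 0.18 ± 0.36 (SE, adjusted p = 0.748) was not called. Unlike these, an oligopeptide transporter (SETIT_026160mg) fell in TT8 by 1.16 with a difference of -1.27 ± 0.27 (SE, adjusted p = 0.00599).

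Of the transcription factors, the GRAS genes RAM1, RAD1 and TF72 had a stronger rise. RAM1, which activates the lipid genes in arbuscule-containing cells, was at 0, 0, 0 and 4.74 in TT8 mock and 168, 363, 221 and 209.8 in TT8 AMF roots. ISE36 mock libraries were all at 0 and ISE36 AMF libraries at 7.57, 11.9, 37 and 26.1. The rise in ISE36 was at least 7.80-fold against the floor of 3 reads, so that the fitted difference of 3.03 ± 0.79 (SE, adjusted p = 0.0165) again depends on the pseudocount. By edgeR it was 0.29 and by DESeq2 0.90, and neither called it, nor did the fit of 24 libraries (adjusted p = 0.0606).

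RAD1, another GRAS factor, known to bind RAM1 in Lotus japonicus, was at 149, 217, 208 and 1285 in TT8 mock and 1249, 1720.2, 1432 and 1539 in TT8 AMF roots. In ISE36 it was at 335, 308, 282 and 357 in mock and 191, 216, 318 and 188 in AMF roots, with overlapping treatments and a response of -0.52 ± 0.46 (SE). The difference was 2.79 ± 0.66 (SE, adjusted p = 0.0103). TF72 rose from 6.52, 9.76, 6.82 and 13 to 117, 281, 158 and 142 in TT8 and from 7.1, 4.97, 2.71 and 2.73 to 5.67, 11.9, 18.9 and 17.7 in ISE36, a difference of 2.70 ± 0.56 (SE, adjusted p = 0.00522). CBF1, a CCAAT-binding factor, belonged to the opposite class. It rose in TT8 from 41, 79, 103 and 161 to 399, 386, 305 and 375 and fell in ISE36 from 217, 172, 199 and 197 to 81.3, 62.6, 89.4 and 81.1, with no overlap in either line and a difference of 3.39 ± 0.41 (SE, adjusted p = 2.00e-04).

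The AP2 genes did not share a pattern. SETIT_022186mg rose in TT8 from 6.52, 1.95, 7.68 and 16.6 to 73.1, 213, 93.3 and 115 and was at 14.2, 20.7, 11.8 and 7.28 in mock and 7.57, 14.9, 14.6 and 24.2 in AMF roots of ISE36, a difference of 3.76 ± 0.71 (SE, adjusted p = 0.00321). SETIT_001909mg went the other way. It rose in ISE36 from 1.77, 4.14, 9.95 and 2.73 to 31.2, 236, 33.5 and 42.9 and was at 11.2, 9.76, 9.38 and 7.11 in mock and 13.1, 16.5, 17.8 and 28.6 in AMF roots of TT8, a difference of -2.66 ± 0.79 (SE, adjusted p = 0.0273) that was not called without TT8 mock replicate 1 (-2.58) or without ISE36 mock replicate 4 (-2.53). Nor was it called in the fit of 24 libraries (adjusted p = 0.0654), and DESeq2 gave no adjusted p for it. AP2c rose in both lines, by 3.63 and 2.91, with a difference of 0.72 ± 0.70 (SE, adjusted p = 0.484), and was called with a pseudocount of 8 (1.27). SETIT_007857mg rose in both lines, by 6.70 and 4.43, with all ISE36 mock libraries at 0 and a difference of 2.26 ± 0.86 (SE, adjusted p = 0.0712) that did not pass the test. It was called without TT8 mock replicate 4 (2.96, adjusted p = 0.00246), without ISE36 AMF replicate 4 (2.73, adjusted p = 0.0369) and with a pseudocount of 8 (2.37, adjusted p = 0.00437). By edgeR and DESeq2 that difference was -0.74 and -0.20.

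**Figure D4:**
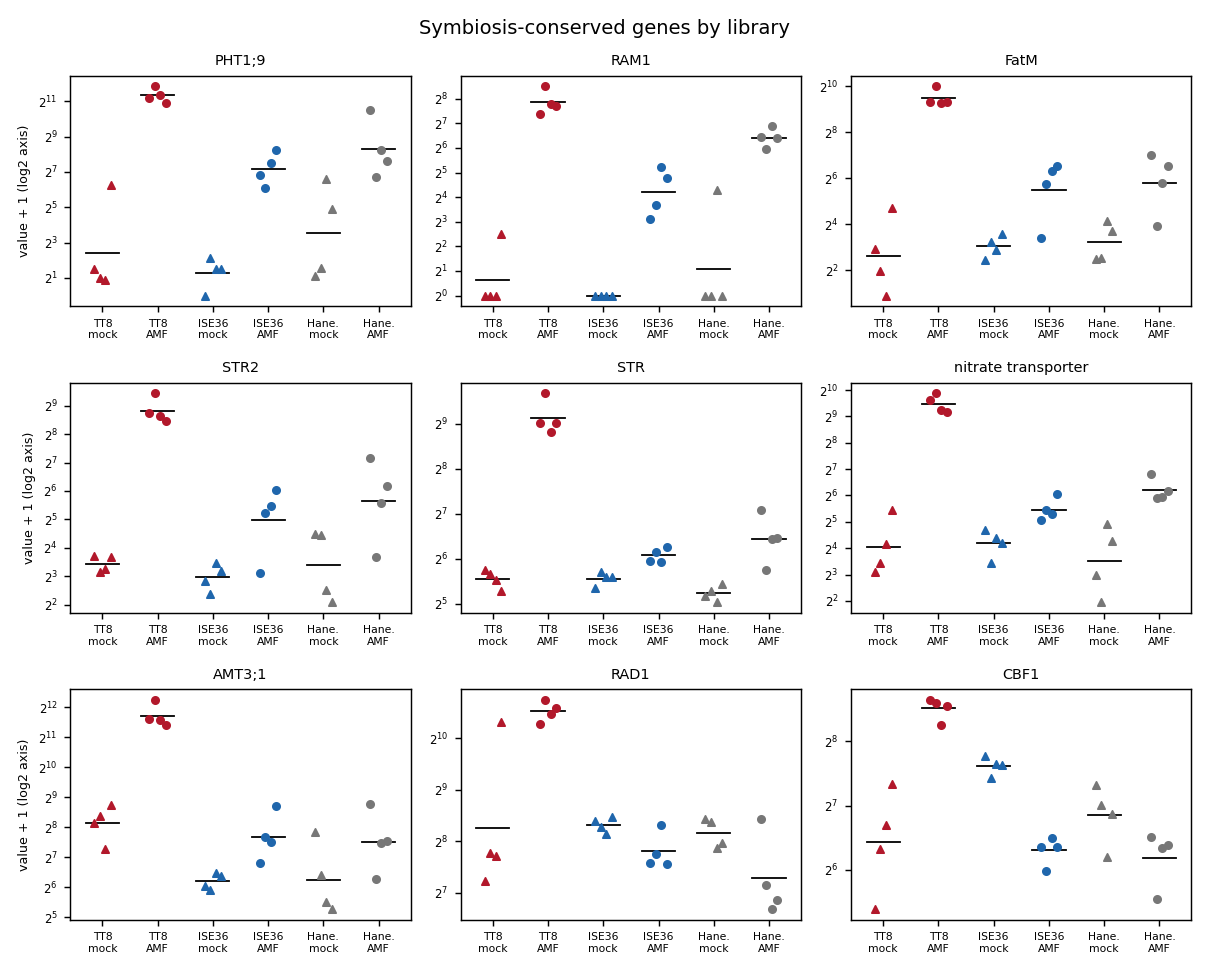
Value + 1 (log2 axis) of 9 conserved symbiosis genes in every library of TT8, ISE36 and Hanevalval (Hane.), with mock as triangles, AMF as circles and the mean on the log scale as a line. In each of the 9 genes the TT8 AMF libraries lie above all ISE36 AMF libraries. TT8 mock replicate 4 stands above the other TT8 mock libraries in all of them but STR and STR2, among them PHT1;9 (74.6), RAM1 (4.74) and RAD1 (1285).

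The list also held genes of the common symbiosis signalling pathway, which passes the fungal signal to the nucleus. The cation channel gene Caster and the receptor-like kinase gene DMI2 had differences of 0.05 and -0.03 and were not called. Neither was the listed gene Nod-factor receptor 5 (0.48), which is not counted to that pathway. CYCLOPS, the transcriptional activator at the end of the pathway, rose in TT8 by 1.90 and had a response of 0.60 in ISE36, with a difference of 1.30 ± 0.66 (SE, adjusted p = 0.169). DMI3, the calcium and calmodulin-dependent kinase that reads the calcium signal, was called although neither line moved by 1. It was at 336, 777, 800.0 and 1430.0 in TT8 mock and 1203, 1266, 1524 and 1642 in TT8 AMF roots, against 605, 895, 931 and 944 in mock and 643, 397, 571 and 521 in AMF roots of ISE36. The difference was 1.58 ± 0.44 (SE, adjusted p = 0.0221).

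Among genes of fungal accommodation, VAPYRIN, needed for entry of the fungus into cells, rose in both lines by 1.82 and 1.37, with a difference of 0.45 ± 0.42 (SE, adjusted p = 0.47) that was not called. The exocyst gene listed as Exo71I (SETIT_015320mg) rose in TT8 from 10.2, 8.78, 18.8 and 21.3 to 192, 288, 182 and 187. In ISE36 it was at 41.7, 53, 34.4 and 51 in mock and 35, 44.7, 89.4 and 77.4 in AMF roots, and the difference was 3.45 ± 0.46 (SE, adjusted p = 4.22e-04). Of 4 class III chitinases, enzymes that cut fungal cell wall chitin, 3 were higher in TT8 by a rise and 1 by a weaker fall. SETIT_002395mg rose in TT8 from 20.5, 22.4, 13.6 and 14.2 to 594, 617, 663 and 629 and was at 12.4, 8.28, 7.23 and 10.9 in mock and 0.946, 2.98, 2.58 and 15.8 in AMF roots of ISE36. Its difference of 6.27 ± 0.65 (SE, adjusted p = 1.10e-04) was the highest of the list. Its ISE36 response of -1.18 ± 0.46 (SE, adjusted p = 0.0721) put it in the opposite class and did not pass the test within that line.

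Of the subtilisin inhibitors SETIT_023913mg and SETIT_011928mg had a stronger rise, at differences of 4.29 and 2.86. SETIT_019796mg did not pass, at 2.19 ± 1.64 (SE, adjusted p = 0.356). It was at 0, 0, 0 and 107 in TT8 mock, 4939.6, 7576, 4577 and 4375 in TT8 AMF and 109, 219.7, 663 and 995 in ISE36 AMF roots, with all ISE36 mock libraries at 0. Without TT8 mock replicate 4 its difference was 3.88 and was called. The germin-like genes were again split, with 4.36 for SETIT_033039mg, called, and 3.56 for SETIT_032400mg, not called (adjusted p = 0.0961). By edgeR SETIT_033039mg was at 3.92 and not called (adjusted p = 0.105). SETIT_032400mg was called without TT8 mock replicate 4 (5.14) and with a pseudocount of 8 (3.99). A DnaJ domain gene (SETIT_032512mg) rose in TT8 from 0.931, 10.7, 29 and 30.8 to 129, 139, 95.4 and 113, against 78.9, 81.1, 37.1 and 41 in mock and 34, 28.8, 32.7 and 60.6 in AMF roots of ISE36, a difference of 3.86 ± 0.92 (SE, adjusted p = 0.0111). The other DnaJ gene (SETIT_032023mg) was not called, at 1.05.

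Outside symbiosis genes, glutamine and arginine metabolism showed called members in both directions. Of 21 listed genes 20 were tested and 5 were called (25%, against 14.3% of all genes). Of these 3 were higher (9.17% of all genes) and 2 lower (5.09%) in TT8, at a median difference of 0.60 over the list. Proline oxidase (SETIT_035342mg), which starts proline breakdown, was at 669, 1483, 2568 and 11909 in TT8 mock and 10988, 11694, 11775 and 11589 in TT8 AMF roots. In ISE36 it was at 5325, 6309.8, 5846 and 6179 in mock and 3828, 2481, 2735 and 2381 in AMF roots. The difference was 3.37 ± 0.80 (SE, adjusted p = 0.0106), and TT8 mock replicate 4 lay at the AMF level. DESeq2 gave 2.52 and no adjusted p. A gene annotated as related to GMP synthase (SETIT_019548mg) rose in TT8 from 79.1, 169.8, 221 and 281 to 405, 793, 570.3 and 662 and fell in ISE36 from 124, 101, 66 and 65.5 to 32.2, 50.7, 28.4 and 35.4, at 3.03 ± 0.48 (SE, adjusted p = 0.00122). A glutamine synthetase (SETIT_036352mg), the enzyme that fixes ammonium, rose in ISE36 from 667, 1202, 2034 and 1632 to 4934, 7169, 9954 and 8354. It was at 439, 534, 519 and 556 in mock and 735, 959, 1027 and 1114 in AMF roots of TT8, and its response was lower there by a difference of -1.63 ± 0.40 (SE, adjusted p = 0.0119), not called in the fit of 24 libraries (adjusted p = 0.264). The number called was 11 without TT8 mock replicate 4 and 8 without ISE36 mock replicate 1. In the study's table every gene of this list was marked as responding in some line of the series, so that the share called is no independent evidence.

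Phenylalanine ammonia-lyases, which open the phenylpropanoid pathway to lignin, were called in 3 of 6 genes (50%, against 14.3% of all genes), all lower in TT8 (5.09% of all genes), with a list median of -1.01. In the study's table every gene of this list and of the aromatic amino acid list was marked as responding in some line of the series. The share called is therefore no independent evidence. SETIT_016504mg rose in ISE36 from 6618, 8119.9, 7701 and 7898 to 14143, 23683, 17804 and 16425 and was at 22303, 17686, 6674 and 10121 in mock and 4501, 7749, 6019.8 and 8566 in AMF roots of TT8, a difference of -2.20 ± 0.44 (SE, adjusted p = 0.00454). Its TT8 response was -0.97 ± 0.31 (SE, adjusted p = 0.0239), just under the fold threshold. SETIT_016478mg rose in ISE36 from 360.1, 383, 589.5 and 639.8 to 1057, 1381, 1255 and 1167 and was at 1521, 2512, 2047 and 1180.0 in mock and 1473, 1187, 1519 and 1754 in AMF roots of TT8, a difference of -1.58 ± 0.32 (SE, adjusted p = 0.0048). A further member, SETIT_009509mg, fell in TT8 by 1.33 and had a response of 0.00 in ISE36 with a difference of -1.33 ± 0.37 (SE, adjusted p = 0.0213), not called in the fit of 24 libraries (adjusted p = 0.134). None of the 15 aromatic amino acid genes was called by limma, by edgeR or by DESeq2. By limma 2 had an unadjusted p under 0.05, and their median difference was -0.16. An aminotransferase (SETIT_001761mg) had an adjusted p of 0.00134 and a difference of -0.85, under the fold threshold, and was called with CPM scaling (-1.02). Another gene of the list (SETIT_034777mg) was called without TT8 mock replicate 4, at 1.51 in place of 1.06.

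Cell wall polysaccharide genes were called in 8 of 50 tested out of 53 (16%, near the 14.3% of all genes), 7 higher and 1 lower in TT8, at a median difference of 0.50. Within lines, 20 of the 50 fell in ISE36 (40.0%, against 4.71% of all genes) and 6 in TT8 (12.0%, against 6.64%). A 1,4-beta-D-xylan synthase (SETIT_013204mg) fell in ISE36 from 11349, 14034, 7990.4 and 7935 to 2707, 2616, 2562 and 4184 and was at 2338, 6415, 7718 and 17498 in mock and 12395, 12886, 9353 and 9112 in AMF roots of TT8. The difference was 2.45 ± 0.60 (SE, adjusted p = 0.0122). A pectinase (SETIT_032233mg) rose in TT8 from 4.66, 15.6, 8.53 and 37.9 to 33.8, 57.9, 34.6 and 41.7 and fell in ISE36 from 27.5, 34, 45.2 and 41 to 19.9, 7.95, 11.2 and 5.59, a difference of 3.37 ± 0.68 (SE, adjusted p = 0.00474). The study had chosen this list on libraries of the series, so that the falls are no independent evidence. Without TT8 mock replicate 4, 14 of its genes were called.

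Hanevalval gave a view of the classes in libraries that had not defined them, as a description without a test. Its mock libraries spread widely, as the plotted genes show. Genes with a weaker rise had a median response of 1.25 there, and 213 of 336 (63.4%) rose by at least 1, against 10.3% of all genes tested. Genes with a weaker fall had a median of -1.40, and 241 of 346 (69.7%) fell by at least 1, against 12.1% of all genes. The opposite genes moved with ISE36 more often than with TT8. With TT8 up, 59 of 134 (44.0%) fell by at least 1 and 4 rose. With TT8 down, 33 of 90 (36.7%) rose by at least 1 and 5 fell. Of 1166 genes with a stronger rise in TT8, 283 (24.3%) rose by at least 1 in Hanevalval and 65 fell, at a median of 0.33. Of 397 with a stronger fall, 61 (15.4%) fell and 18 rose, at a median of -0.18.

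Of the leading genes, SETIT_022614mg had a response of 3.68 in Hanevalval and SETIT_019806mg -3.02, on the side of ISE36. SETIT_028233mg had 2.06 there, between the responses of the other lines. For STR, FatM and the nitrate transporter the Hanevalval responses were 1.20, 2.59 and 2.69, between those of ISE36 and TT8 in each case. Those of PHT1;9 (4.73), RAM2 (4.25) and RAD1 (-0.88) lay below the ISE36 response, as did that of AMT3;1. The median over the tested conserved symbiosis genes was 1.82, against 3.61 in TT8 and 1.16 in ISE36.

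**Figure D5:**
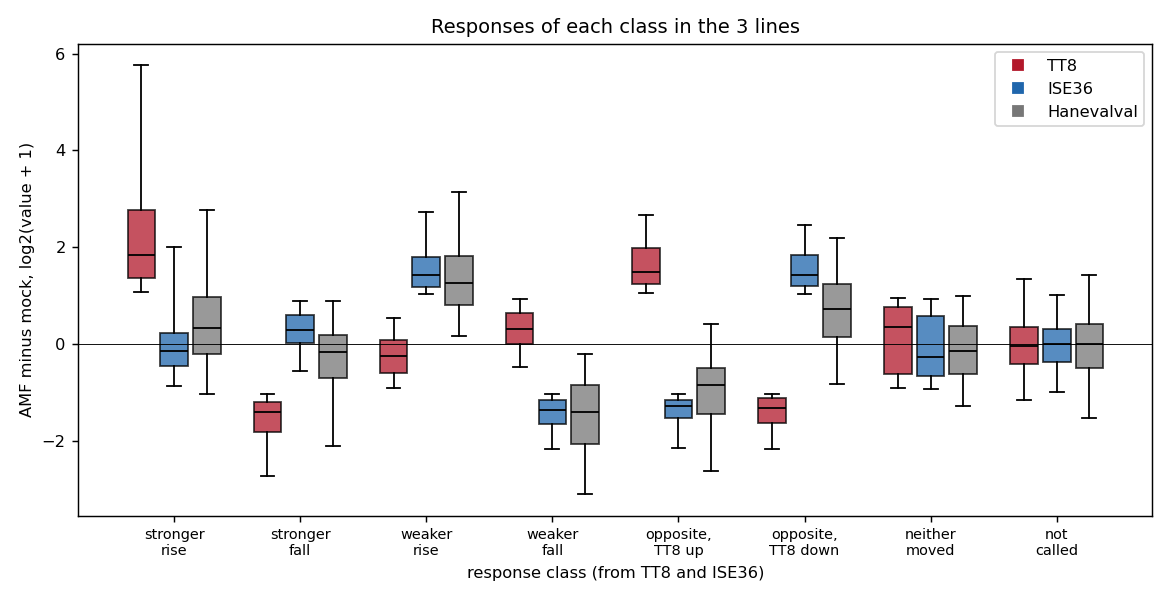
AMF minus mock on the log2(value + 1) scale in TT8, ISE36 and Hanevalval for each response class, which TT8 and ISE36 define; boxes are quartiles with the median, whiskers the 5th and 95th percentiles. Hanevalval medians of 1.25 and -1.40 lie beside those of ISE36 in the weaker classes, and at 0.33 and -0.18 in the stronger classes.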

How the data were processed

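The authors deposited 1 table per line of signal values, read counts per gene divided by 1 factor per library. Per the labels and the study's methods, reads were trimmed with Trimmomatic 0.38, aligned with HISAT2 2.1.0 to the Setaria italica v2.0 genome and counted with featureCounts 2.0.0, and edgeR for normalization and DESeq2 1.26.0 for differential expression are named. The scaling of the deposited values matched median-of-ratios size factors, as DESeq2 computes them, over all 24 libraries within 0.182%. Every library's values were whole multiples of 1 step, so that 100.0% of them gave whole reads. All 24 columns carried a sample and 0 columns lacked one. Replicates are the 4 numbered libraries of a group, called biological samples in the study, and no pair of them repeated the same reads (lowest chi-square per gene 7.29). Totals of 16543884 to 23333517 reads on genes in the 16 libraries of TT8 and ISE36 set the precision of low values.

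The tables of TT8 and ISE36 were joined by gene identifier. Values were taken as log2(value + 1), a scale that understates changes of low genes, and genes whose mean fell under 5 in either line were left out. limma 3.58.1 fitted the means of the 4 groups over 16 libraries with a variance trend and tested the difference of the responses. P-values were adjusted by Benjamini-Hochberg over the 23850 genes, and called genes had an adjusted p no higher than 0.05 and a difference of 1 or more in either direction. Adjusted p-values in the text are limma's. edgeR 4.0.16 and DESeq2 1.42.0 on recovered reads, other scalings, pseudocounts, filters, the 24 libraries together, a replicate block and leaving out each library were alternatives. Steps were tested on simulated data. Folds against groups of at most 3 reads per library are lower bounds.

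Named genes were, in each of 6 classes, the 3 with the largest difference among called genes that averaged 50 or more in both lines and stayed called in all 16 fits without a library; the conserved symbiosis genes that the study discusses by symbol; and in each other list the 2 called genes with the largest difference. Further list genes were named after their values were seen. The members and lists were chosen with earlier results of these data known. The reference table at hand pairs no identifier of these files with a name, so that annotations are those of the study's gene lists, and photosynthesis or endodermis markers as a check of the tissue label, families by description and gene sequences were not analysed here. R 4.3.3, Python 3.11.15, numpy 2.4.6, pandas 2.3.3 and matplotlib 3.10.9 were used.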

Additional observations from a re-analysis of the deposited data

Results flagged for a closer look

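The difference between the responses of TT8 and ISE36 on the log2(value + 1) scale passed limma's test in 38 of the 44 named genes that were tested, and these are set out here because the effect of the same treatment differed between the lines. The leading genes of the classes and the members of the other lists had been named because they passed. The count therefore reflects that choice and cannot be set against the 14.3% of all genes tested. Among the leading genes of the classes it was positive in SETIT_008807mg (6.18), SETIT_028233mg (6.02), SETIT_037319mg (5.87), SETIT_023893mg (3.15), SETIT_039446mg (3.11), SETIT_019806mg (2.80), SETIT_028002mg (5.63), SETIT_004450mg (5.19) and SETIT_024435mg (4.98). It was negative in SETIT_013490mg (-3.63), SETIT_029452mg (-3.41), SETIT_015030mg (-3.26), SETIT_022614mg (-4.16), SETIT_037604mg (-3.64), SETIT_013661mg (-2.85), SETIT_037942mg (-4.47), SETIT_013775mg (-4.42) and SETIT_019504mg (-3.91). Among the conserved symbiosis genes it was DMI3 (1.58), STR (3.06), STR2 (3.38), RAM2 (3.31), RAM1 (3.03), RAD1 (2.79), TF72 (2.70), FatM (4.40), Exo71I (3.45), AMT3;1 (2.10), the nitrate transporter gene (4.16), SETIT_001909mg (-2.66), SETIT_022186mg (3.76) and CBF1 (3.39) for those that passed. Among members of the other lists it was SETIT_032233mg (3.37), SETIT_013204mg (2.45), SETIT_035342mg (3.37), SETIT_019548mg (3.03), SETIT_016504mg (-2.20) and SETIT_016478mg (-1.58).

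In 11 of the 176 groups of 4 libraries that these genes form, 1 library lay apart from the other 3 by Dixon's ratio, at a rate chance gives in about 1 of 20 groups. In 4 cases it was TT8 mock replicate 4, at 71.1 for SETIT_008807mg, 74.6 for PHT1;9, 4.74 for RAM1 and 5.92 for SETIT_007857mg, in each case the highest of its group. The others were 137 for SETIT_029452mg in TT8 mock replicate 1, 14452 for SETIT_037942mg in ISE36 AMF replicate 2, 605 for DMI3 in ISE36 mock replicate 1, 1024 for FatM in TT8 AMF replicate 2, 288 for Exo71I in TT8 AMF replicate 2, 236 for SETIT_001909mg in ISE36 AMF replicate 2 and 4184 for SETIT_013204mg in ISE36 AMF replicate 4. Their part in the differences is given by the fits without each library.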

How the results depend on the processing

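Directions of the called differences were kept in every alternative for the leading genes of the classes. Of the 38 called named genes, 31 stayed called in every alternative that tested them. Genes that averaged under 50 in either line, STR2 and FatM among them, were not tested in the alternative with a mean of at least 50. For the leading genes, staying called in the 16 fits without a library was a condition of naming, so that this count does not measure how stable calls are. Of all 3402 called genes, 2070 (60.8%) stayed called in those fits. Leaving out each library in turn gave 1598 to 3366 genes higher and 920 to 1773 lower in TT8, 1053 to 3026 stronger, 551 to 814 weaker and 154 to 355 opposite genes, and 3501 to 5742 genes called within TT8 and 1710 to 2594 within ISE36. The highest numbers of higher, lower and stronger genes came without TT8 mock replicate 4. Opposite genes numbered 140 with a pseudocount of 8 and 130 with a mean of at least 50, and weaker genes 392 in the fit of 24 libraries. Without the fold threshold, 2166 genes were lower in TT8, 9298 were called within TT8 and 6266 within ISE36. Genes called within TT8 were 2837 and within ISE36 1444 with a mean of at least 50, where fewer genes were tested, and within ISE36 1551 with 24 libraries. The cause of the other changes was not tested. RAM2 turned to -0.72 by edgeR and -0.38 by DESeq2 and SETIT_007857mg to -0.74 and -0.20, where all ISE36 mock libraries held 0 reads. CPM scaling moved the median difference of all genes by -0.16 and gave 1875 higher and 1528 lower genes, and edgeR gave 1609 and 1319. Low read numbers limit the genes that are near silent in mock roots.

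Same-numbered mock and AMF libraries share only a number. Their deviations from the group means correlated at -0.15 to 0.19 and a library did not always correlate best with its own number. With the replicate number as a block 3521 genes were called, 2315 higher and 1206 lower in TT8, with 3113 of the 3402 calls kept, and RAM2 at 3.31 was no longer called.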

Other observations

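Genes listed for TT8 and not for ISE36 entered no comparison. Conserved symbiosis genes among them were low in TT8 mock roots. AP2d (SETIT_032213mg) was at 0, 0.976, 0.853 and 10.7 in TT8 mock and 15.3, 26.9, 12.6 and 20.9 in TT8 AMF libraries. A plastocyanin-like domain gene (SETIT_039259mg) was at 0, 0.976, 0 and 8.29 in mock and 185, 197, 154 and 109 in AMF libraries. A protein kinase gene (SETIT_006522mg) was at 0, 0, 0 and 4.74 in mock and 77.4, 62, 49.3 and 51.6 in AMF libraries. In the 3 genes TT8 mock replicate 4 was the highest of the mock libraries and the treatments overlapped in none of them.

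Noncoding RNA genes made up 96 of the genes tested, and 6 were called (6.25%, against 14.3% of all genes), all with a higher response in TT8 (9.17% of all genes).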
